A study of Homo sapiens with 16 samples.

Results

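The zinc finger genes described here are those whose symbol on the array runs from ZNF500 to ZNF899. They were chosen by name alone, with the brightest probe taken for each gene by its mean log2 level, and 175 of 18841 named genes qualified, with 257 probes between them. ZNF619, the member whose fall in the same arrays prompted the question of whether other zinc finger genes fell with it, is given as a description without a test. It is 1 of the genes in each count of lower genes under a digest below, and the main counts are also given without it. Expression was measured on 16 one-colour arrays in undifferentiated Caco-2 cells, a human intestinal epithelial line derived from a colorectal tumour. The cells were kept for 6 h in medium with serum and one addition per group, with 4 arrays in each. MED-CTL cells received no addition. The p31-43 cells received a synthetic gliadin peptide at 150 µg/ml, PT cells a blank digest of pepsin and trypsin prepared without substrate, and PT-G cells gliadin digested with the same enzymes, so that the digestion enzymes were shared by PT and PT-G. The arrays came from independent experiments on cells of 1 line a few passages apart. They fell into 4 runs, sets with 1 array of each group that share a date in the deposited array names, and lay on 5 slides.

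Zinc finger proteins of the C2H2 type read DNA through tandem fingers, each folded around a zinc ion, and form the largest family of human transcription factors. Many carry a KRAB domain, which recruits the corepressor TRIM28 and through it the histone methyltransferase SETDB1 and the HP1 proteins CBX1, CBX3 and CBX5, and silences the bound DNA. The genes arose by repeated duplication, lie largely in clusters on chromosome 19, and near copies can share probe sequence. Most are named only by number and have no known role in the intestine.

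Of the 175 genes, 137 had a signal well above background on all 16 arrays, 24 on some arrays and 14 on none. Their mean log2 intensity had a median of 9.1, against 9.35 over all named genes, and ran from 5.76 to 15.14. The array annotation places 84 of them on chromosome 19. All 175 were matched to RefSeq, and 20 carry another symbol there, such as ZNF643 (now ZFP69B) and ZNF694 (now ZKSCAN2). All 10 intestinal epithelial marker genes measured were well above background on all 16 arrays. Among markers of other cells, 3 of 5 leukocyte, 4 of 5 fibroblast and 2 of 4 endothelial genes were also above background throughout, while PTPRC (leukocyte) and COL1A2 (fibroblast) were among those that were so on no array. Of all these markers only KRT20, a keratin of differentiated enterocytes, passed a nominal p of 0.01 between a digest and MED-CTL. The part of cell state in the results below was not tested. Median intensities ran from 153 to 410 between arrays, and with 4 arrays a group, precision is limited by their number. Slide 3 held replicate 3 of MED-CTL, p31-43 and PT-G, and no PT array. Probes more than 1 log2 from the median of their group were most numerous on its MED-CTL and PT-G arrays (2070 and 1518). Its p31-43 array had 893 such probes, fewer than replicate 4 of MED-CTL (949) and of PT-G (1053), both on slide 4. The 13 arrays of the other slides had 45 to 1053. Results are also given without slide 3, a choice made after the data were seen.

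RefSeq promoter sequence was at hand for 143 of the 175 genes, and 10 of the 16 that were lower under PT. It was lacking for ZNF619, ZNF552, ZNF572, ZNF746, ZNF694 and ZNF623, so that several of the largest falls are not covered. The letters CCGGAAG, the core of the site that ETS factors bind, occurred on either strand in 41 of these 143 promoters (28.7%), against 8.82% of all 27305 RefSeq promoters, over the 250 bases before the start. Among the 10 genes lower under PT, 4 (40%) held it, and among the other 133 members 37 (27.8%) did. These 4 are shown 5′ to 3′ on the strand of the gene, with CCGGAAG or its reverse complement in capitals so that the starts of genes that fell can be compared (RefSeq, GRCh38.p14; ZNF502 chr3:44712410-44712659, plus strand; ZNF594 chr17:5191869-5192118, minus strand; ZNF620 chr3:40505789-40506038, plus strand; ZNF688 chr16:30571715-30571964, minus strand).
ZNF502: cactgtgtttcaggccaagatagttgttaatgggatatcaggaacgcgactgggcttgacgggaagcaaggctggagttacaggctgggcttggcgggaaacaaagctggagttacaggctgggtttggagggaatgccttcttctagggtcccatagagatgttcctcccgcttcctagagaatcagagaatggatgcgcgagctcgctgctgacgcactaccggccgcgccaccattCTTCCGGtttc
ZNF594: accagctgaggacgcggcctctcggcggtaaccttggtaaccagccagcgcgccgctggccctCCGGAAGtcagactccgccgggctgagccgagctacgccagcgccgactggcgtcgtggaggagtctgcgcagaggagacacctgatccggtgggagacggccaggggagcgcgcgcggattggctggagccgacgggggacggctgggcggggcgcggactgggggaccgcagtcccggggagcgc
ZNF620: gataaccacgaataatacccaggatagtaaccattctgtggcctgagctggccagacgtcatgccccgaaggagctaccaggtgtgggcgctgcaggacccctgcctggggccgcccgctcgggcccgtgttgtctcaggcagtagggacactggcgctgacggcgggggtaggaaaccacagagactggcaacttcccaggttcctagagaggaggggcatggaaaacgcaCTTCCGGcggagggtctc
ZNF688: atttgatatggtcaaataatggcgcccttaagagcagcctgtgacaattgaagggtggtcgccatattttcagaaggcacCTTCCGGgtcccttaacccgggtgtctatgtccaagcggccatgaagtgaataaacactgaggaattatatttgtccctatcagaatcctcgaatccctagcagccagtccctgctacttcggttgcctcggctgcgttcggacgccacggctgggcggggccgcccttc
In ZNF502 and ZNF620 the letters stand within the last part of the window, next to the start, and in ZNF594 and ZNF688 they stand farther up. TGACGTCA, the site of CREB and ATF factors, occurred in 5 of 143 (3.5%), against 1.77% of all promoters. Its 5 carriers included ZNF501, the neighbour of ZNF502, whose promoter is shown for that reason with TGACGTCA in capitals (chr3:44729385-44729634, plus strand).
ZNF501: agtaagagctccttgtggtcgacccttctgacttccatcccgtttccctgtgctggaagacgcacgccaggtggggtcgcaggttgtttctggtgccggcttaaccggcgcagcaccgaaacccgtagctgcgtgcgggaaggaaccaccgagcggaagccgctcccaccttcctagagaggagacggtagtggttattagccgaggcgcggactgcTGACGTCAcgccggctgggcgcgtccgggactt
TGANTCA, the AP-1 site, occurred in 5 members (3.5%; 6.6% of all promoters), and GCGNGGGCG, the EGR site, in 13 (9.09%; 8.25%). None of the 10 genes lower under PT held either of them, against 3.76% and 9.77% of the other 133 members. Both strands were searched, overlaps between patterns were not removed, and a match describes letters only. The GC content of the 10 promoters had a median of 62%, against 61.6% for the other members and 58% for all promoters.

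ZNF619 was lower under both digests than in medium, and not under the peptide. Its log2 intensity in MED-CTL was 8.63, 8.87, 9.53 and 8.15 in replicates 1 to 4. In p31-43 cells it was 8.83, 8.59, 8.83 and 8.54. In PT cells it was 7.15, 6.95, 7.03 and 6.86. In PT-G cells it was 7.08, 7.09, 7.92 and 7.15. All 8 digest arrays lay below all 8 others, and the highest of them was replicate 3 of PT-G, on slide 3. The log2 difference from MED-CTL was −1.80 under PT (SE 0.24), a fold of 0.288, and −1.49 under PT-G (SE 0.24), a fold of 0.356. Without slide 3 the differences were −1.55 (SE 0.15) and −1.45 (SE 0.16).

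**Figure D1:**
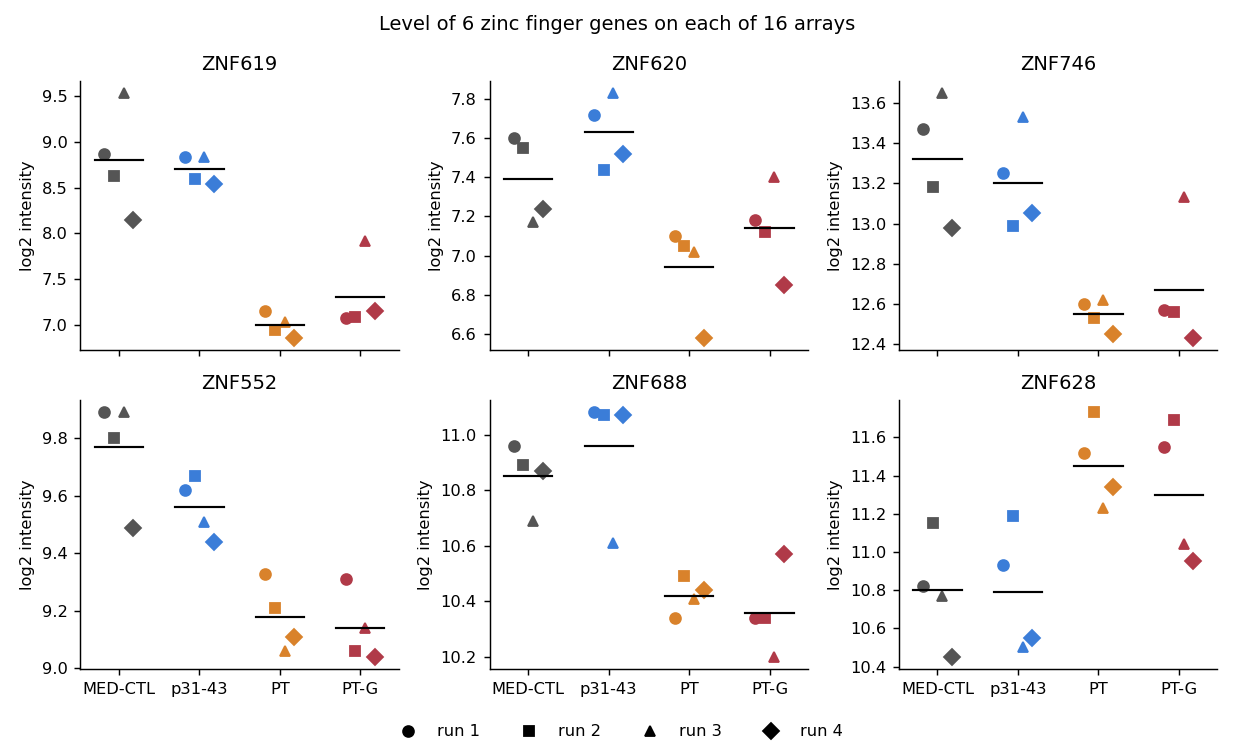
Log2 intensity (y axis) of 6 zinc finger genes on each of the 16 arrays, by group (x axis). Points are arrays, with the shape giving the run, and bars are means of 4 arrays; the y axes differ and do not start at 0. ZNF619 lay between 6.86 and 7.92 on the 8 digest arrays and between 8.15 and 9.53 on the other 8, and ZNF628 is the gene shown that was higher under PT.

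In cells given the blank digest, zinc finger genes were more often lower than higher. At a nominal p under 0.01 (limma), 16 of 175 genes (9.14%) were lower under PT than in MED-CTL, against 2.62% of the 18831 named genes tested and 1.84% of all 40982 probes. Without ZNF619 the count was 15 of 174 (8.62%). Only 4 genes (2.29%) were higher, against 2.41% of named genes. After Benjamini-Hochberg adjustment over all probes, 1 of the 174 other genes, ZNF552, was lower at an adjusted p under 0.05. That was about the same share as among named genes (0.605%), so the larger share at the nominal p was not seen at this threshold. On all 4 PT arrays 18 genes were below all 4 MED-CTL arrays (17 without ZNF619), as were 3.5% of named genes. The median log2 change of the 175 genes was −0.12, against −0.01 for all named genes, and 124 of them (70.9%) had a negative change, against 52.6%. A log2 change below −0.3 was found for 51 genes (29.1%; 9.87% of named genes) and one above 0.3 for 11 (6.29%; 10.5%).

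**Figure D2:**
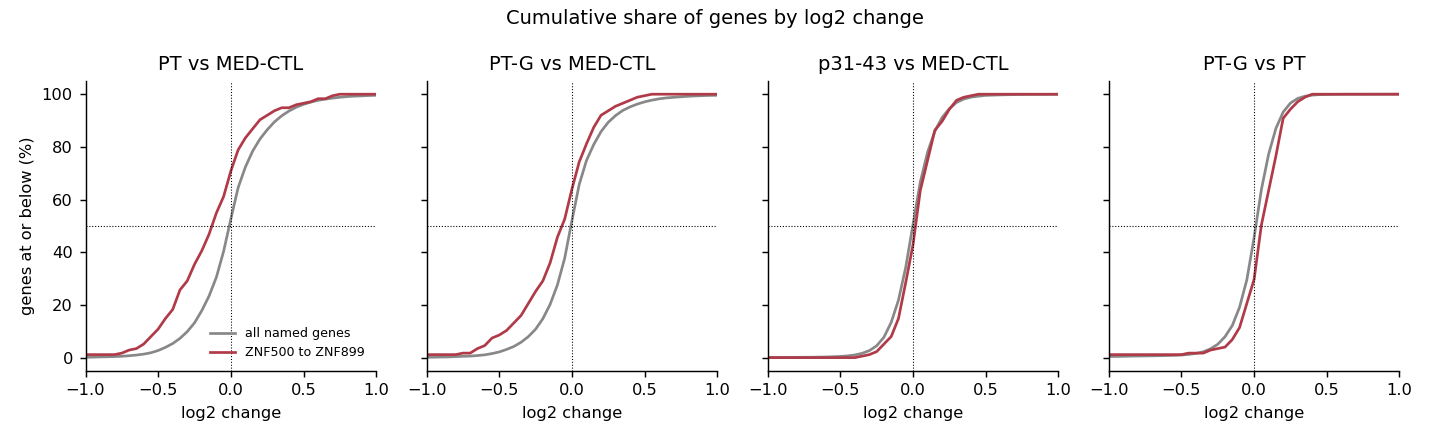
Cumulative share of genes (y axis, %) at or below each log2 change (x axis) for the 175 zinc finger genes and for all named genes, in 4 comparisons of 4 arrays with 4. Under PT and PT-G the line of the zinc finger genes lies to the left of the other, with medians of −0.12 and −0.07, and in p31-43 the medians are 0.02 and 0.

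A limma model with a term for each run gave 42 of the 175 genes lower under PT and 5 higher, while 6.97% of named genes were lower and 6.11% higher. Without ZNF619, 41 of 174 were lower, 29 of them at an adjusted p under 0.05. The share of named genes at that adjusted p was not counted in this fit, so the 29 cannot be set beside it. All 16 genes of the fit without a block were among the 42. Within the 4 runs the median difference of the 175 genes was −0.09, −0.15, −0.21 and −0.11, against −0.01, −0.02, −0.03 and 0 for all named genes. In all 4 runs 60 genes (34.3%) were lower under PT, against 15.2% of named genes. In run 3 the PT array lay on slide 5 and the MED-CTL array on slide 3, so that this difference also crossed slides. Their deviations from the group means were not correlated over all probes (−0.0176), and run 3 gave the largest median difference (−0.21). Without slide 3, 16 genes were lower, 12 of them the same, and 2 higher, against 2.81% and 3.08% of named genes, and the median was −0.09. ZNF619 was among the 16. Without replicate 4 of PT 9 genes were lower, and without replicate 2 of PT 10. The shares of named genes were not counted with these arrays left out.

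ZNF552, a KRAB zinc finger gene on chromosome 19, had the smallest p of the other genes. In MED-CTL it read 9.80, 9.89, 9.89 and 9.49, and in PT 9.33, 9.21, 9.06 and 9.11, so that the groups did not overlap. The log2 change was −0.59 (SE 0.10; limma adjusted p = 0.0133). In p31-43 cells it read 9.62, 9.67, 9.51 and 9.44, above all PT arrays and overlapping MED-CTL. A second probe of ZNF552, 15 arrays of which were well above background, had a change of 0.49 (SE 0.28), and with all probes of a gene averaged ZNF552 no longer passed.

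ZNF746 encodes the KRAB repressor PARIS, a substrate of the ubiquitin ligase parkin that represses the mitochondrial regulator PGC-1α. It was the brightest of the genes that fell. It read 13.18, 13.47, 13.65 and 12.98 in MED-CTL and 12.60, 12.53, 12.62 and 12.45 in PT. The PT arrays all lay below the MED-CTL arrays and close together. The log2 change was −0.77 (SE 0.17; adjusted p = 0.0535), a fold of 0.587.

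ZNF694 encodes ZKSCAN2, which combines a SCAN with a KRAB domain. Its levels were 10.87, 10.83, 11.49 and 10.92 in MED-CTL and 10.20, 10.31, 10.23 and 10.69 in PT, a log2 change of −0.67 (SE 0.15; adjusted p = 0.0515). ZNF643 (ZFP69B), next to its relative ZFP69 on chromosome 1, read 8.69, 8.45, 9.32 and 8.53 in MED-CTL and 7.83, 8.07, 8.20 and 8 in PT, a change of −0.72 (SE 0.20). In neither gene did the groups overlap. The KRAB gene ZNF630 on the X chromosome read 9.46, 9.67, 9.82 and 9.06 in MED-CTL and 8.97, 8.80, 8.77 and 8.97 in PT, a change of −0.63 (SE 0.14; adjusted p = 0.0564). ZNF688 on chromosome 16 read 10.89, 10.96, 10.69 and 10.87 in MED-CTL and 10.34, 10.49, 10.41 and 10.44 in PT, a change of −0.43 (SE 0.11).

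ZNF572 had the largest fall after ZNF619, and its MED-CTL arrays spread widely. It read 9.39, 10.15, 10.65 and 8.77 in MED-CTL and 8.73, 8.63, 8.79 and 8.60 in PT. Replicate 4 of MED-CTL overlapped the PT arrays. The change was −1.05 (SE 0.31; adjusted p = 0.187) and became −0.75 (SE 0.25; adjusted p = 0.229) without slide 3, where it missed a nominal p of 0.01. ZNF501, ZNF502 and ZNF658 also missed a nominal p of 0.01 without slide 3, with changes of −0.36, −0.47 and −0.46.

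The neighbours ZNF501 and ZNF502 on chromosome 3 both fell under PT. ZNF502 read 8.29, 8.81, 8.99 and 8.36 in MED-CTL and 8.24, 8.04, 8.17 and 7.63 in PT, a change of −0.59 (SE 0.19). ZNF501 read 7.31, 7.46, 8.09 and 7.12 in MED-CTL and 7.03, 6.89, 7.17 and 6.64 in PT, a change of −0.56 (SE 0.18), with an overlap at replicate 4 of MED-CTL. A second, dimmer probe of ZNF501, well above background on 6 arrays, changed by −0.23 (SE 0.42).

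Of the genes beside ZNF619, ZNF620 passed and ZNF621 did not; the difference between them was not tested. ZNF619, ZNF620 and ZNF621 follow one another on chromosome 3. ZNF620 read 7.55, 7.60, 7.17 and 7.24 in MED-CTL and 7.10, 7.05, 7.02 and 6.58 in PT. The groups did not overlap, but replicate 4 of PT stood well below the other 3 arrays of its group. The change was −0.45 (SE 0.15; adjusted p = 0.26). ZNF621 read 7.11, 6.83, 6.82 and 6.69 in MED-CTL and 6.74, 7.01, 6.73 and 6.54 in PT, with a change of −0.10 (SE 0.12; adjusted p = 0.869) and overlapping groups.

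The other genes lower under PT were ZNF658, ZNF594, ZNF623, ZNF544 and ZNF577, with log2 changes of −0.51, −0.51, −0.49, −0.48 and −0.46 and adjusted p between 0.127 and 0.253. ZNF658, reported to regulate zinc-responsive genes, was well above background on all MED-CTL arrays, 3 PT arrays and 2 PT-G arrays. The 3 probes of ZNF544 differed: the brightest changed by −0.48, and the others by −0.24 and 0.07. For ZNF658, a second probe changed by −0.73 and the remaining one by 0.11.

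**Figure D3:**
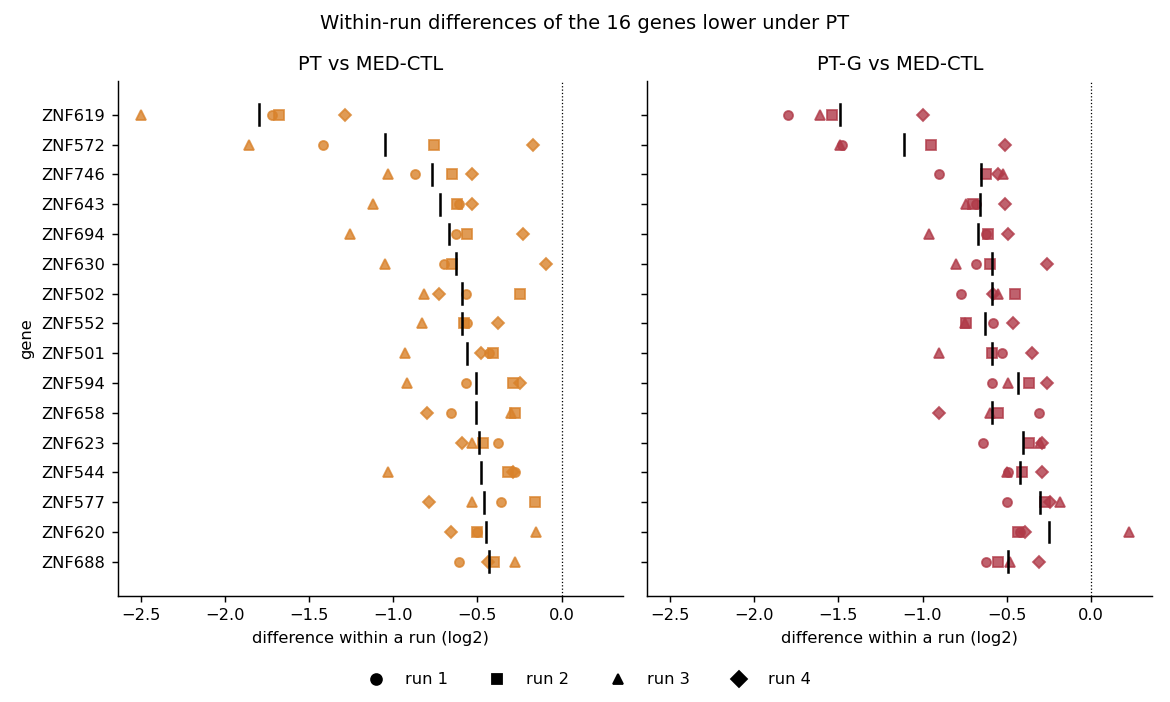
Log2 difference between a digest and MED-CTL within each run (x axis) for the 16 genes lower under PT (y axis), for PT (left) and PT-G (right). Shapes are runs, and bars are the fitted log2 change over all arrays. Every difference under PT is negative, and under PT-G 1 is positive (ZNF620, run 3, 0.23).

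The 4 genes higher under PT had changes of up to 0.66. ZNF628 read 11.15, 10.82, 10.77 and 10.45 in MED-CTL and 11.52, 11.73, 11.23 and 11.34 in PT, a change of 0.66 (SE 0.21; adjusted p = 0.227). ZNF597, an imprinted gene on chromosome 16, read 7.83, 7.42, 7.67 and 7.73 in MED-CTL and 7.97, 8.01, 8.37 and 8.32 in PT, a change of 0.51 (SE 0.13). ZNF556 changed by 0.42 (SE 0.12). The groups did not overlap in any of these genes. ZNF536, a repressor of neuronal differentiation genes, passed with a nominal p of 0.00848 but was well above background on no array, and no fold is given for it.

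With gliadin digested by the same enzymes, zinc finger genes were again more often lower than higher, measured against the same MED-CTL arrays. At a nominal p under 0.01, 12 of 175 genes (6.86%) were lower under PT-G, against 2.18% of named genes and 1.52% of all probes, and 11 of 174 (6.32%) without ZNF619. ZNF556 and ZNF597 were higher (1.14%, against 2.62% of named genes). At an adjusted p under 0.05, 2 of the 174 other genes, ZNF552 and ZNF694, were lower, against 0.531% of named genes. On all 4 PT-G arrays 6 of 175 genes lay below all MED-CTL arrays (5 of 174 without ZNF619). That share was close to the 2.38% of named genes. The median change was −0.07, against −0.01 for all named genes. A negative change was found for 112 genes (64%), against 52% of named genes.

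The replicate numbers and the runs differ for replicates 1 and 2 of MED-CTL, which lie in runs 2 and 1, and the labels do not settle which marks the experiment. For these arrays the correlations of deviations from the group means with the other groups were higher by run than by number. Both are given as blocks. With the replicate number as a block, 26 genes were lower under PT-G and 8 higher, against 4.64% and 5.32% of named genes. Without ZNF619, 25 of 174 were lower, 14 of them at an adjusted p under 0.05. Here too the share of named genes at that adjusted p was not counted. Blocking on the run also gave 26 and 8, against 5.58% and 6.38% of named genes, and the 12 genes of the fit without a block were among the 26. Within the 4 runs the median difference was −0.15, −0.15, −0.01 and −0.03, against −0.01, −0.02, −0.01 and 0.01 for all named genes. In run 3 the medians were thus the same. In all 4 runs 51 genes (29.1%) were lower, against 16.8% of named genes. Without slide 3, 19 genes were lower (18 without ZNF619), all 12 among them, and 0 higher, against 2.5% and 3.06% of named genes, and the median was −0.09. Without replicate 2 of PT-G, 7 genes were lower, and with only the PT-G and MED-CTL arrays in the model 6 were. For both of these fits the shares of named genes were not counted.

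The PT-G values of the single genes follow. ZNF552 read 9.31, 9.06, 9.14 and 9.04, a change of −0.63 from MED-CTL (SE 0.10; adjusted p = 0.00854). ZNF694 read 10.21, 10.26, 10.54 and 10.43, a change of −0.67 (SE 0.15; adjusted p = 0.0483). ZNF688 read 10.34, 10.34, 10.20 and 10.57, a change of −0.49 (SE 0.11; adjusted p = 0.0541). None of these groups overlapped MED-CTL.

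ZNF746 read 12.57, 12.56, 13.13 and 12.43 in PT-G, a change of −0.65 (SE 0.17), and replicate 3, on slide 3, was the array that overlapped MED-CTL. The same array was also the highest of its group for ZNF572 (9.16), ZNF643 (8.58), ZNF502 (8.44) and ZNF501 (7.20). The changes of these 4 genes were −1.11, −0.66, −0.59 and −0.59. The second probe of ZNF501 changed by 0.47 (SE 0.42) under PT-G. ZNF658, ZNF630 and ZNF594 changed by −0.59, −0.59 and −0.43. A second probe of ZNF630 changed by 0.20 (SE 0.27). With all probes of a gene averaged, ZNF501, ZNF552, ZNF630 and ZNF658 no longer passed under PT-G, with changes of −0.06, −0.23, −0.19 and −0.35, and under PT ZNF501, ZNF544, ZNF552 and ZNF658 no longer passed.

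The other 4 genes lower under PT did not pass under PT-G without a block, and ZNF623 and ZNF544 had a nominal p under 0.01 with the replicate number (adjusted p = 0.0352 and 0.0923), the run (adjusted p = 0.0169 and 0.0726) or the slide as a block. Without a block, ZNF623 changed by −0.40 (adjusted p = 0.336), ZNF544 by −0.42 (adjusted p = 0.396), ZNF577 by −0.30 (adjusted p = 0.498) and ZNF620 by −0.25 (adjusted p = 0.82). Between PT-G and PT, in the order given, these genes changed by 0.09, 0.06, 0.16 and 0.20 (adjusted p = 1 for each), so that no difference between the digests was shown for them.

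Between PT-G and PT no gene of the 175 had a nominal p under 0.01 or under 0.05 (limma). At 0.01, 0.0903% of named genes passed, a share so small that none of 175 passing lies close to it. At 0.05, 47 of the 18831 named genes were lower and 95 higher. The median change was 0.05, with 0.01 for all named genes. ZNF619 differed by 0.31 (SE 0.24), ZNF552 by −0.04 (SE 0.10) and ZNF746 by 0.12 (SE 0.17). With the run as a block, ZNF553 alone passed, with a change of 0.39 (adjusted p = 0.899); it was named because it was the only such gene.

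With the gliadin peptide alone, no zinc finger gene of this range passed the test against medium. Between p31-43 and MED-CTL, none of 175 genes had a nominal p under 0.01 or under 0.05 (limma). At 0.01, 0.451% of named genes passed, a share so small that none of 175 passing lies close to it. At 0.05, 241 of the 18831 named genes were lower and 202 higher. None of the 175 passed 0.01 with the run or the replicate number as a block, while 4 did with the slide as a block. The median change was 0.02. ZNF552 had a change of −0.21 (SE 0.10), ZNF620 of 0.24 (SE 0.15) and ZNF746 of −0.12 (SE 0.17), each with an adjusted p of 1.

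Set against p31-43 in place of medium, the digests gave lower values again. Under PT 12 genes were lower (6.86%, against 2.37% of named genes) and ZNF628 higher (0.571%, against 1.98%), and 11 of 174 were lower without ZNF619. Under PT-G 12 genes were lower (2.35% of named genes; 11 of 174 without ZNF619) and none higher (2.72% of named genes). ZNF688 had the smallest p of the other genes, with 11.08, 11.07, 10.61 and 11.07 in p31-43 cells and changes of −0.53 under PT (adjusted p = 0.0382) and −0.59 under PT-G (adjusted p = 0.0177). ZNF620, at 7.72, 7.44, 7.83 and 7.52 in p31-43 cells, differed by −0.69 (SE 0.15; adjusted p = 0.0501) and −0.49 (SE 0.15; adjusted p = 0.187). Among the genes that passed, ZNF619 aside, the largest differences under PT-G were those of ZNF572 (−0.97), ZNF658 (−0.65), ZNF643 (−0.59) and ZNF688, and under PT those of ZNF620, ZNF628 (0.66), ZNF746 (−0.65) and ZNF643 (−0.65). With the run as a block, 42 were lower and 4 higher for PT (6.24% and 4.85% of named genes), and 27 and 4 for PT-G (6.15% and 6.38%). With the replicate number as a block 35 and 4 passed for PT (5.31% and 3.89%), and 24 and 3 for PT-G (5.24% and 5.26%).

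**Figure D4:**
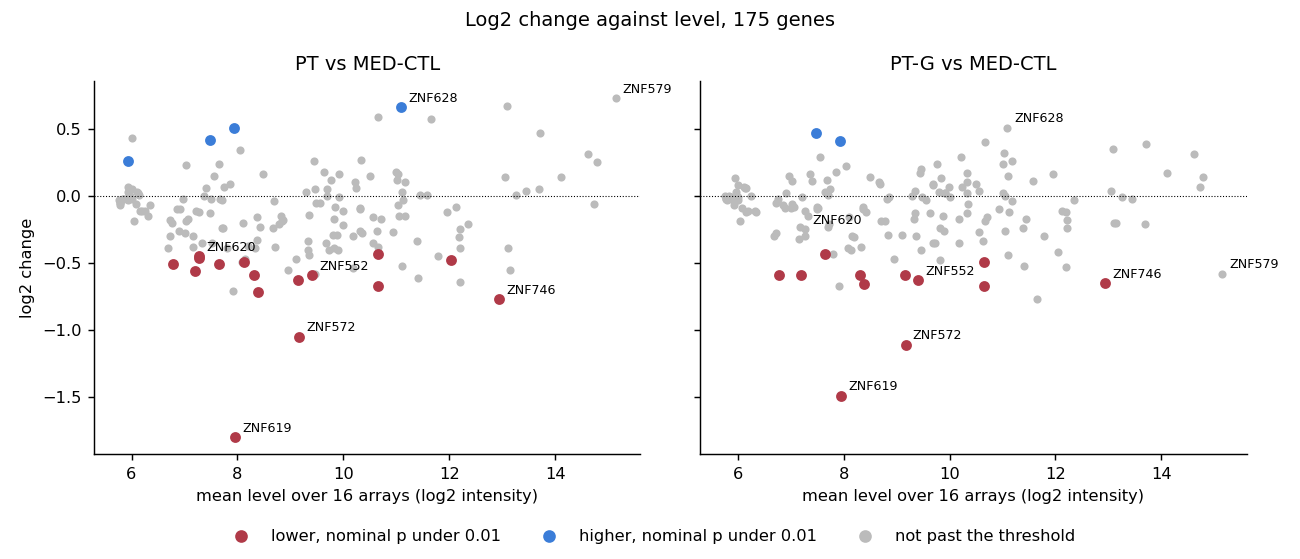
Log2 change from MED-CTL (y axis) against mean log2 intensity over 16 arrays (x axis) for the 175 genes under PT (left) and PT-G (right). Red points were lower and blue points higher at a nominal p under 0.01, and grey points did not pass; the genes lower under PT lie between 6.78 (ZNF658) and 12.94 (ZNF746).

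Counts by level and chromosome were as follows. Under PT, 8 of 52 genes with a mean level from 7 to 9 were lower (15.4%), against 3.62% of all named genes in that range, and 5 of 50 from 9 to 11 (10%; 4.88%). At 11 or more 2 of 38 were lower (5.26%; 2.81%), and under 7 1 of 35 (2.86%; 0.677%). Of the 137 genes well above background on all arrays, 12 were lower (8.76%), against 3.4% of such named genes.

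On chromosome 19, 3 of 84 genes (3.57%) were lower under PT, and elsewhere 13 of 91 (14.3%), against 2.62% of all named genes. Under PT-G the counts were 1 (1.19%) and 11 (12.1%), against 2.18% of named genes. The median changes were closer, −0.11 and −0.15 under PT and −0.08 and −0.06 under PT-G. With the run as a block, 17 genes on chromosome 19 (20.2%) and 25 elsewhere (27.5%) were lower under PT, against 6.97% of named genes. Under PT-G the run block gave 8 (9.52%) and 18 (19.8%), against 5.58%. This split was made after the values were seen, and the difference was not tested.

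The 3 genes with the highest mean levels did not pass the test. ZNF525 read 14.24 to 15.23 in MED-CTL and 14.51 to 15.29 in PT, and ZNF598, a ubiquitin ligase that senses collided ribosomes, 14.44 to 15.06 and 14.35 to 15.06. Their changes were 0.25 and −0.06 under PT and 0.14 and 0.07 under PT-G, with SE of 0.28 and 0.18. ZNF579 was the brightest by mean, and had the widest spread of those named. It read 15.91, 15.91, 11.56 and 16.90 in MED-CTL, 15.36, 16.04, 13.25 and 16.12 in p31-43, 14.77, 16.21, 16.28 and 15.94 in PT, and 16.15, 15.64, 10.99 and 15.17 in PT-G. The 3 lowest values were the 3 arrays of slide 3.

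The genes whose pattern over the 16 arrays was most like that of ZNF619 were ZNF746, ZNF572, ZNF501, ZNF544 and ZNF630, with Pearson correlations of 0.96, 0.93, 0.92, 0.90 and 0.90. The points share groups, runs and slides. With the group means removed, the correlations were 0.90, 0.93, 0.89, 0.93 and 0.72, so that the arrays of one group also moved together in these genes. In ZNF619 and each of these genes, replicate 3 was the highest array of MED-CTL and of PT-G, and both lay on slide 3. The part of slide 3 in the correlations was not tested. For ZNF620, beside ZNF619, the correlation was 0.76, and 0.29 with the group means removed. For ZNF579 the latter was −0.91, and the 3 arrays of slide 3 were its lowest.

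Zinc finger genes outside this range of names were compared in the same fit. Of 252 genes from ZNF1 to ZNF499, 36 (14.3%) were lower and 5 higher under PT, and 28 (11.1%) lower and 6 higher under PT-G, while 1 passed in p31-43. Their median changes were −0.13 and −0.08. Of 22 genes named ZFP, ZSCAN or ZKSCAN, none was lower and ZFP36 alone higher under either digest; ZFP36 encodes tristetraprolin, an RNA-binding protein of the CCCH type that promotes mRNA decay, and is no C2H2 factor. With the run as a block 1 gene of this list was lower under each digest, ZFP95 under PT and ZFP62 under PT-G. The difference between these lists was not tested.

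The partners of KRAB proteins did not pass the test. Of 19 listed genes 18 were measured, all of them well above background on all 16 arrays, and none had a nominal p under 0.01 under PT, PT-G or p31-43 (limma), while SETDB1 alone was under 0.05 with PT and PT-G. TRIM28, the corepressor itself, changed by −0.04 (SE 0.20) under PT and −0.12 (SE 0.20) under PT-G. SETDB1, the histone methyltransferase, changed by −0.24 (SE 0.09) and −0.26 (SE 0.09). TRIM24, a relative of TRIM28, changed by −0.46 (SE 0.22) and −0.35 (SE 0.22). CBX1, CBX3 and CBX5 changed by 0.01, −0.01 and 0.14 under PT. With the run as a block TRIM33 alone passed, higher under PT.

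**Figure D5:**
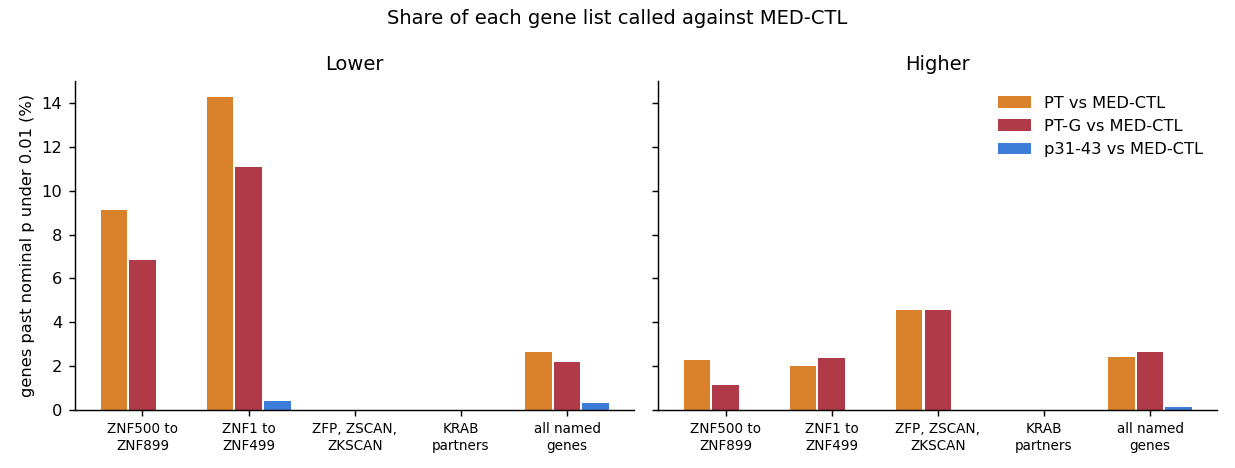
Share of genes (y axis, %) lower (left) or higher (right) than MED-CTL at a nominal p under 0.01 in 5 gene lists (x axis), for PT, PT-G and p31-43; bars start at 0. Under PT 9.14% of ZNF500 to ZNF899 and 14.3% of ZNF1 to ZNF499 were lower, against 2.62% of all named genes.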

How the data were processed

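RNA of 16 Caco-2 cultures was hybridised to one-colour Agilent arrays by the authors, 4 from independent experiments per group. The deposited scanner files hold the median intensity of each spot with flags, and a deposited table holds log2 values that the authors made by quantile normalization without background subtraction. The build behind the array annotation is not given in the sources used here, and promoter coordinates are those of the RefSeq table (GRCh38.p14). From the intensity of 43376 non-control spots, log2 values were quantile-normalized, 1774 spots marked as outliers were masked and spots averaged per probe. The 40982 probes with at least 3 unmarked arrays per group were fitted with limma 3.58.1 in R 4.3.3 as a model of 4 groups, and p-values were adjusted by Benjamini-Hochberg within each comparison over all probes. Nominal p under 0.01, the threshold of the study, and adjusted p under 0.05 were used. Files without counts have no sequencing depth. The test was also run on simulated data with independent noise on each array. These held no run or slide effect, so that they cannot show how the test behaves under such effects.

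Members and gene lists were chosen with earlier results of these data known. The genes named are ZNF619, ZNF620 and ZNF621, up to 14 lower and 8 higher genes for each digest against MED-CTL, taken first by adjusted p and then by size of change among those at a nominal p under 0.01, the 4 of largest change at that p in each other comparison, the 3 brightest, and the 5 most correlated with ZNF619 over the 16 arrays. The remaining genes that passed under PT, and ZNF553, were named in addition after their values were seen. The replicate numbers paired the arrays where every correlation of same-numbered deviations was over 0.1: PT-G and MED-CTL (0.395 to 0.858), p31-43 and MED-CTL (0.263 to 0.708), PT and p31-43 (0.135 to 0.602), and PT-G and p31-43 (0.574 to 0.837), but not PT and MED-CTL (−0.0176 to 0.41) or PT-G and PT (0.037 to 0.695). Paired by run, the correlations of PT with MED-CTL were 0.364, 0.618, −0.0176 and 0.41 in runs 1 to 4. By run they were 0.625 to 0.858 for PT-G and MED-CTL and 0.536 to 0.708 for p31-43 and MED-CTL. In runs 1 and 2, where the pairings differ, each correlation with MED-CTL was higher than by number. Alternatives were other background corrections, scalings, probe rules and blocks, each array left out, and, chosen after seeing the data, slide 3 left out. Protein sequences were not used here.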

Additional observations from a re-analysis of the deposited data

Results flagged for a closer look

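In 6 of 96 groups of 4 arrays tested for the named genes, 1 array stood apart from the other 3 by Dixon's test at the 95% level, which chance alone gives in about 5% of groups. ZNF619 read 7.92 in replicate 3 of PT-G, the next value being 7.15. ZNF694 read 11.49 in replicate 3 of MED-CTL, against 10.92 for the next. ZNF688 read 10.61 in replicate 3 of p31-43, against 11.07 for the next. These 3 arrays are those of slide 3. ZNF620 read 6.58 in replicate 4 of PT, against 7.02 for the next, ZNF577 read 7.27 in replicate 1 of MED-CTL, against 7.51, and ZNF556 read 7.88 in replicate 3 of PT, against 7.57.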

How the results depend on the processing

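Every zinc finger gene that passed under PT or PT-G against MED-CTL kept its direction in each alternative in which it was tested. So did the 4 genes followed in each comparison of a digest with p31-43. The other genes that passed against p31-43 were not followed. Counts at a nominal p under 0.01 moved most with a block. Of 16 genes lower under PT, the replicate block gave 36, the run 42 and the slide 34 (5.94%, 6.97% and 6.9% of named genes). Of 12 lower under PT-G the blocks gave 26, 26 and 32 (4.64%, 5.58% and 7.43%). There the 2 groups alone gave 6 and the fit without slide 3 19 (2.5%). Of 13 that passed between PT and p31-43 the blocks gave 39, 46 and 37, and of 12 between PT-G and p31-43 27, 31 and 35. With the slide block 31 were lower and 6 higher for PT (6.97% and 6.92% of named genes), and 27 and 8 for PT-G (6.75% and 7.45%). Of 4 genes higher under PT, the signal scaled to its 75th percentile left 1, median scaling 2 and the fit without slide 3 2. Of 2 higher under PT-G these left 0, 1 and 0, and the filter on dim probes, the 2 groups alone and an intensity trend 1 each. The blocks gave 8, 8 and 10 (5.32%, 6.38% and 7.83% of named genes). For p31-43 the slide block gave 4 (1 lower and 3 higher, against 1.96% and 2.16% of named genes). Between PT-G and PT the run and slide blocks gave 1 each, both higher (0.244% and 0.271% of named genes). With arrays left out in turn, 9 to 21 genes were lower and 1 to 4 higher under PT, 7 to 18 and 1 to 3 under PT-G, 0 to 2 passed in p31-43, 0 between PT-G and PT, 8 to 19 between PT and p31-43 and 6 to 15 between PT-G and p31-43. Medians over these fits ran from −0.16 to −0.09 (PT), −0.12 to −0.03 (PT-G), −0.03 to 0.06 (p31-43) and −0.01 to 0.09 (PT-G against PT). Shares of named genes that passed were not counted in these fits. Nor were they counted for the scalings, the dim filter, the intensity trend or the 2 groups alone. Such counts therefore cannot be set beside all genes. The median under PT was −0.22 with the scaled signal, −0.18 with median scaling (named genes −0.08) and −0.18 with the dim filter. With the scaled signal it was −0.16 under PT-G and −0.03 in p31-43 (named genes −0.07). Some genes that did not pass changed sign. ZNF579 was at −0.32 under PT with the slide block and −0.44 without slide 3, and ran from −0.44 to 1.34 under PT and −1.75 to 0.58 under PT-G with arrays left out. With probes averaged, ZNF525 was at −0.02 and ZNF598 at 0.10 under PT. With arrays left out, ZNF598 ran from −0.19 to 0.05 under PT and −0.03 to 0.17 under PT-G, ZNF525 from −0.12 to 0.33 and ZNF621 from −0.13 to 0.01 under PT-G. The cause of these shifts was not tested, and 24 genes were dim on some arrays and 14 on all, which limits what can be seen of them.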
